A study of Mus musculus with 6 samples.

Results

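The 10 genes described here encode the proximal kinases of the B-cell receptor (Syk, Lyn, Btk, Blk and Fyn), its phospholipase (Plcg2), the PI3K catalytic subunit p110-delta (Pik3cd) with its adaptor BCAP (Pik3ap1), and a pair of inhibitory phosphatases, SHIP1 (Inpp5d) and SHP-1 (Ptpn6). They were taken by symbol, and all 10 were found among the 37315 genes of the abundance table and among the 11003 with a mean of at least 1 TPM, an abundance unit scaled to gene length and library total. Of the 19402 genes with allelic counts, 8 were members, and all 8 had at least 20 such counts in each library. Btk and Plcg2 were not analysed by allele here.

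RNA was sequenced from 3 lines of immortalised mouse B cells, Abl.2, Abl.3 and Abl.4, with 2 libraries each. All 3 carry the 129S1/SvImJ x CAST/EiJ F1 genome, so that maternal and paternal transcripts can be counted apart at sequence variants, and the series title concerns monoallelic expression and DNA methylation. The sex on the labels is female for Abl.2 and Abl.4 but male for Abl.3. All were untreated controls in medium with 1% DMSO, a solvent, and live cells were taken on day 2 after a density gradient. Each line is a single clone, and its libraries are labelled as repeat preparations. Whether they share an RNA extraction or a culture is not given in the sources used here, so every p-value below covers the spread between these libraries, which may be technical only.

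When antigen or a pre-B-cell receptor clusters, Src-family kinases (Lyn, Fyn and Blk) phosphorylate the signalling tails of Cd79a and Cd79b, and Syk docks there. Syk and Btk then activate Plcg2, which makes the calcium and diacylglycerol signals, while Pik3ap1 recruits PI3K to make the membrane lipid PIP3 that holds Btk in place. Inpp5d removes a phosphate from PIP3 and Ptpn6 removes phosphates from the kinases and their substrates, so that both damp the signal.

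RefSeq (GRCm38.p6) held promoter windows, 250 bases before to 50 after a start, for 8 of the 10 members and 11 starts. Lyn and Blk were not among them. The windows of Pik3ap1, Fyn and Btk are shown because these genes are examples of different abundance patterns found below: highest in Abl.4, lowest in Abl.4, and level. They are written 5′ to 3′ on the gene's strand with each CpG, the dinucleotide that DNA methylation acts on, in capitals. They lie at chr19:41385053-41385352 (minus strand), chr10:39369549-39369848 (plus strand) and chrX:134583091-134583390 (minus strand).
Pik3ap1: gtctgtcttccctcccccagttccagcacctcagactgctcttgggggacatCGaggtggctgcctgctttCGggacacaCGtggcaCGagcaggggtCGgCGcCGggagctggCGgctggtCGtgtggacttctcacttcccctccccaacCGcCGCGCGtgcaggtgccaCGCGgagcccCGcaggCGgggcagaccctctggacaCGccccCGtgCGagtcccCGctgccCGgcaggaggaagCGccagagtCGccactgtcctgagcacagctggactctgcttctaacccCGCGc
Fyn: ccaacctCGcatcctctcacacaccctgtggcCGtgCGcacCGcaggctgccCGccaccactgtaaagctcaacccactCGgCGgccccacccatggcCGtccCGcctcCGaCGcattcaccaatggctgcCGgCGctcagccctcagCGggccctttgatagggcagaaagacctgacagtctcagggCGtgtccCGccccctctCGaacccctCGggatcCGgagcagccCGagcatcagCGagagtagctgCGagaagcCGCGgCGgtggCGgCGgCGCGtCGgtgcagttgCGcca
Btk: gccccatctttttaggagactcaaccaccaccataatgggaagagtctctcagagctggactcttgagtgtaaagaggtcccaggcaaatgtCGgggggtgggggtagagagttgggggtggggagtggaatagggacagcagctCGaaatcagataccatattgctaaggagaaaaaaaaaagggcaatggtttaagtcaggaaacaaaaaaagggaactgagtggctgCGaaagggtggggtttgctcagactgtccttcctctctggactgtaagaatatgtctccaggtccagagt
Pik3ap1 held 26 CpGs and Fyn 31, above the upper quartile of 20 over 32851 promoter windows, and Btk held 3, the lower quartile. Of the other members, Plcg2 held 21, Ptpn6 8 and Inpp5d 6. Syk had a start with 31 and one with 2, and Pik3cd had starts with 26, 6 and 4. The letters GGAAGT, which ETS factors such as PU.1 can bind, were found on either strand in windows of Syk, Pik3cd, Pik3ap1, Inpp5d and Ptpn6, and in 23.8% of all windows. CAGCTG, an E-box, was found in Syk and Pik3ap1 and in 16.3% of all windows. TGTGGT, a RUNX motif, was in none of the members' windows, against 16.8% of all. These matches describe the letters of the windows and are not binding sites.

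Allelic counts summed to between 18362319 and 26881211 per library. The depth behind the TPM values is unknown. All 10 B-lineage markers (among them Pax5, Ebf1 and Rag1) were at or above 1 TPM in every library, and their summed level, most of it from Igll1, Cd79a, Vpreb1 and Cd79b, lay between 12620 and 13980 TPM. Single markers differed between lines: Pax5 had 246.05 and 206.59 TPM in Abl.2, 56.18 and 63.95 in Abl.3, and 155.86 and 165.36 in Abl.4. Rag1 had 21.96 and 24.64 TPM in Abl.2, 4.39 and 5.34 in Abl.3, and 9.84 and 12.9 in Abl.4, while Rag2 was highest in Abl.3, at 43.41 and 46.47 TPM. T-cell markers summed to at most 0.07 TPM. The 6 myeloid markers summed to 159 to 193 TPM in Abl.2, 74.98 to 97.2 in Abl.3 and 77.88 to 89.42 in Abl.4. These sums came mostly from Lyz2, with Cd14 and Elane at 0 in every library. The 3 NK-cell markers summed to 14.14 to 16.13, 0.77 to 1.18 and 5.48 to 6.83 TPM in the 3 lines in turn. Their sum came mostly from Klrb1c, with Ncr1 at 0 in every library and Nkg7 at most 0.13 TPM. Plasma-cell markers summed to 24.87 to 28.11 TPM in Abl.2, 8.42 to 9.23 in Abl.3 and 21.93 to 22.41 in Abl.4, so that they, Pax5 and Rag1 were lowest in Abl.3, as were Syk, Plcg2 and Inpp5d below. Erythroid and megakaryocyte markers summed to at most 1.24, and fibroblast markers to at most 0.03. Whether other cells took part in the differences below was not tested. Other annotated genes overlap Lyn (4), Fyn (3) and Btk, Plcg2, Pik3cd and Ptpn6 (1 each), and their reads were not separated here. In RNA from many cells, fewer cells that express a gene and less RNA per cell cannot be told apart.

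Apart from Blk, every member had at least 26.83 TPM in each of the 6 libraries, and the lines differed most in Blk and in the PI3K adaptor. Blk was 64.5 times higher in TPM in Abl.4 than in Abl.2, and Pik3ap1 3.88 times higher, while Fyn was lower in Abl.4 than in both other lines and Pik3cd higher in Abl.2 than in both. Btk lay within 98.3 to 111.44 TPM in all 6 libraries.

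Differences were tested with limma on log2(TPM + 1), a scale that understates the change of low genes, at a Benjamini-Hochberg adjusted p of 0.05. Between Abl.2 and Abl.3, 6 of the 10 members passed, against 39.8% of all genes tested: 4 were higher in Abl.2 (25.9% of all genes) and 2 lower (14.0%). Between Abl.2 and Abl.4, 7 passed, against 33.5%: 2 had more transcript in Abl.2 (15.0%) and 5 less (18.4%). Between Abl.3 and Abl.4, 8 passed, against 38.1%: 1 was higher in Abl.3 (11.3%) and 7 lower (26.8%). The median difference of the 10 members was 0.10, -0.31 and -0.55 in that order of pairs, and that of all genes 0.10, -0.03 and -0.15. The members' counts in the last comparison thus leaned towards Abl.4, as did those of all genes. The lean of all genes depends on scaling. The share of all calls higher in the first line of each pair was 65%, 44.9% and 29.8% in TPM, 51.4%, 52.8% and 52% after quantile normalisation, and 50.7%, 45.9% and 45.8% on summed allelic counts. No member that passed in TPM changed direction or lost its call after quantile normalisation, nor did any of the 8 members with allelic counts on the summed counts, where Btk and Plcg2 were not tested. The 3 comparisons share libraries and are not independent of each other.

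**Figure D1:**
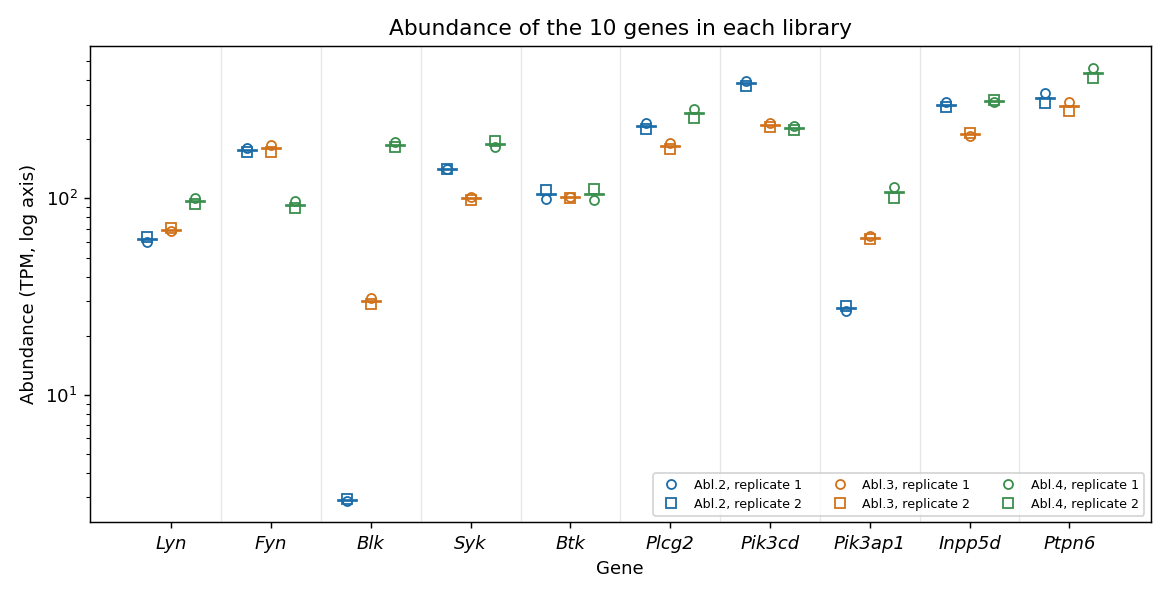
Abundance of the 10 members in TPM (log axis) by gene. Each symbol is 1 library (circles replicate 1, squares replicate 2), coloured by line, and short bars are the line means. Blk spans 2.89 to 193.61 TPM, the widest range, and the 6 libraries of Btk nearly coincide.

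Among the Src-family kinases, Blk (B lymphoid kinase, found in pre-B and B cells) had 2.89 and 2.93 TPM in Abl.2, 31.02 and 29.07 in Abl.3, and 193.61 and 182.05 in Abl.4. The 3 lines did not overlap, and each step was several times larger than the spread between libraries. Blk was lower in Abl.2 than in Abl.3 by a log2 difference of -2.99 ± 0.09 (SE; limma, adjusted p = 5.78e-06), lower in Abl.2 than in Abl.4 by -5.59 ± 0.09 (adjusted p = 8.91e-07) and lower in Abl.3 than in Abl.4 by -2.61 ± 0.09 (adjusted p = 1.57e-05). In Abl.2 against Abl.4 this difference lay below those of all but 0.118% of genes tested. No annotated gene overlaps Blk.

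Fyn, the Src-family kinase that also serves T-cell and neuronal receptors, went the other way. It had 181.07 and 173.17 TPM in Abl.2, 186.6 and 173.43 in Abl.3, and 96.94 and 89.35 in Abl.4. Abl.2 and Abl.3 overlapped, and both libraries of Abl.4 lay below them. Fyn was higher in Abl.2 than in Abl.4 by 0.92 ± 0.08 (limma, adjusted p = 0.000359) and higher in Abl.3 than in Abl.4 by 0.94 ± 0.08 (adjusted p = 0.000376), and the value for Abl.2 against Abl.3 was -0.02 ± 0.08 (adjusted p = 0.845, 95% interval -0.22 to 0.17). Fyn lies on chromosome 10, whose genes as a group had a median difference of 0.59 between Abl.2 and Abl.3 and of 0.44 between Abl.2 and Abl.4. The difference of Fyn was above those of 10.8% of chromosome 10 genes in the first pair and of 85.9% in the second.

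Lyn, which both starts the signal and triggers the inhibitory receptors, had 60.23 and 63.54 TPM in Abl.2, 68.1 and 70.49 in Abl.3, and 99.97 and 94.24 in Abl.4. The lines did not overlap. Lyn was lower in Abl.2 than in Abl.4 by -0.64 ± 0.08 (limma, adjusted p = 0.00145) and lower in Abl.3 than in Abl.4 by -0.48 ± 0.08 (adjusted p = 0.00479). The difference of -0.16 ± 0.08 between Abl.2 and Abl.3 did not pass (adjusted p = 0.149), and passed after quantile normalisation, at -0.27 (adjusted p = 0.0338).

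The 8 Src-family genes together came to 244.6 ± 3.8 TPM (SD, n = 2, as for all values in this paragraph) in Abl.2, 283.8 ± 9.0 in Abl.3 and 389.8 ± 17.0 in Abl.4. Fyn made up 72.4% ± 1.2, 63.4% ± 1.3 and 23.9% ± 0.32 of that sum in the 3 lines in turn, and Blk 1.19% ± 0.03, 10.6% ± 0.15 and 48.2% ± 0.028. Lyn stayed near 25.3% ± 1.3, 24.4% ± 1.4 and 24.9% ± 0.059. The ratio of Blk to Fyn came to 0.0164 ± 0.00068, 0.167 ± 0.00098 and 2.02 ± 0.028, so that Fyn was the most abundant Src-family transcript in Abl.2 and Abl.3 and Blk in Abl.4. These shares are descriptions of sums that share members and were not tested.

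**Figure D2:**
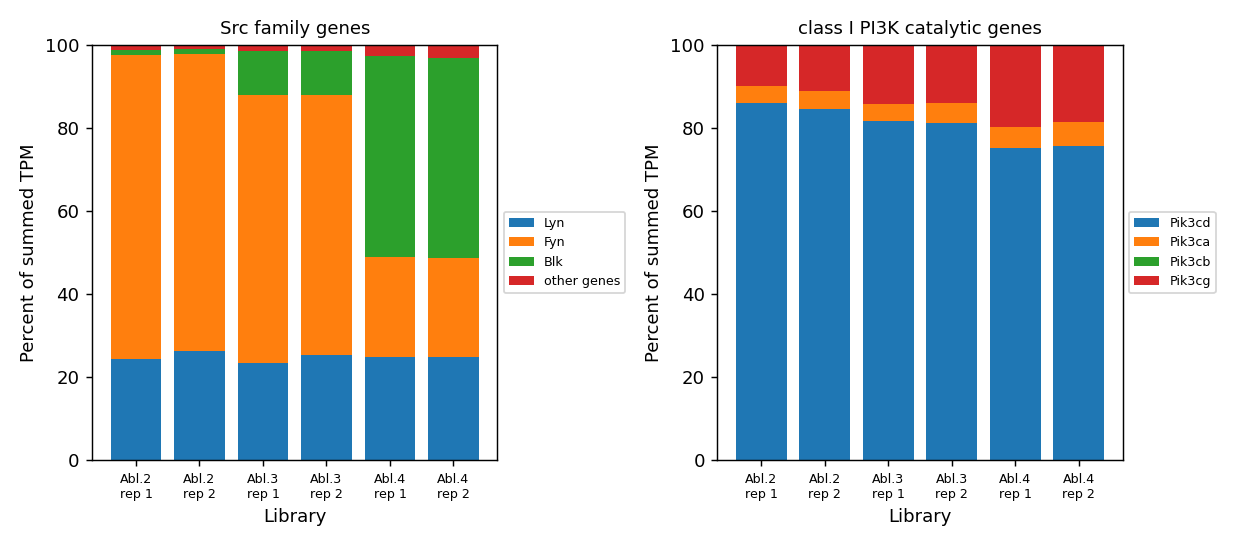
Share of summed TPM (percent) taken by Lyn, Fyn, Blk and the other Src-family genes together (left) and by each class I PI3K catalytic subunit (right), with 1 stacked bar per library. Blk takes a mean of 1.19% of the Src family in Abl.2 and 48.2% in Abl.4, and Pik3cd holds most of the PI3K sum in all 3 lines.

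Syk, the kinase that binds the phosphorylated receptor tails, had 141.14 and 141.71 TPM in Abl.2, 102.07 and 98.51 in Abl.3, and 182.25 and 195.65 in Abl.4. The lines did not overlap, with Abl.3 lowest. Syk was higher in Abl.2 than in Abl.3 by 0.49 ± 0.07 (limma, adjusted p = 0.0029), lower in Abl.2 than in Abl.4 by -0.41 ± 0.07 (adjusted p = 0.0066) and lower in Abl.3 than in Abl.4 by -0.91 ± 0.07 (adjusted p = 0.000291).

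Btk, the Tec-family kinase that acts on Plcg2, had 99.88 and 111.02 TPM in Abl.2, 101.44 and 100.95 in Abl.3, and 98.3 and 111.44 in Abl.4. The lines overlapped throughout, and the libraries of Abl.2 and of Abl.4 differed more from each other than the line means did. None of its differences passed. They were 0.06 (limma, adjusted p = 0.666, 95% interval -0.17 to 0.28) between Abl.2 and Abl.3, 0.01 (adjusted p = 0.954, -0.22 to 0.23) between Abl.2 and Abl.4, and -0.05 (adjusted p = 0.715, -0.27 to 0.18) between Abl.3 and Abl.4. Btk is X-linked, and the mean of the male line, 101.2 TPM, lay within the range of the female lines' libraries. It made up 70.1% ± 1.2, 82.9% ± 0.64 and 80.2% ± 1.3 of the summed TPM of the Tec family in the 3 lines (SD, n = 2), and Tec nearly all the remainder. The ratio of Syk to Btk was 1.35 ± 0.097, 0.991 ± 0.021 and 1.81 ± 0.07 (SD, n = 2) in the 3 lines.

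Downstream, Plcg2 had 243.6 and 226.58 TPM in Abl.2, 192.67 and 179.1 in Abl.3, and 285.3 and 256.55 in Abl.4. The lines did not overlap, with Abl.3 lowest, as for Syk. Plcg2 was lower in Abl.3 than in Abl.4 by -0.54 ± 0.09 (limma, adjusted p = 0.00462) and higher in Abl.2 than in Abl.3 by 0.34 ± 0.09 (adjusted p = 0.0235). The second call was lost without either library of Abl.2 or either of Abl.3 (adjusted p from 0.0602 to 0.133). Abl.2 against Abl.4 gave -0.20 ± 0.09 (adjusted p = 0.122, and 0.0261 with the replicate number as a block). Plcg2 exceeded Plcg1, its more widely expressed relative, 8.94 ± 0.23, 5.20 ± 0.19 and 6.61 ± 0.13 times in the 3 lines (SD, n = 2).

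Pik3cd, whose product is the main PI3K catalytic subunit of lymphocytes, had 396.49 and 375.84 TPM in Abl.2, 243.44 and 229.84 in Abl.3, and 233.65 and 223.89 in Abl.4. Abl.2 stood above both other lines, which overlapped each other. Pik3cd was higher in Abl.2 by 0.70 ± 0.07 than in Abl.3 (limma, adjusted p = 0.000702) and by 0.75 ± 0.07 than in Abl.4 (adjusted p = 0.000549). The difference between Abl.3 and Abl.4 was 0.05 ± 0.07 (adjusted p = 0.632) and passed only on summed allelic counts among the settings tried, at 0.32 (edgeR, adjusted p = 0.0128). On chromosome 4, which both genes share, Pik3cd stood above 86.1% and 93.1% of genes in the 2 comparisons of Abl.2, and Lyn above 24.3% and 12.2%.

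Of the summed class I catalytic subunits, Pik3cd made up 85.3% ± 1.0, 81.5% ± 0.38 and 75.3% ± 0.36 in Abl.2, Abl.3 and Abl.4 (SD, n = 2). Pik3cg, the subunit coupled to chemokine receptors, made up 10.6% ± 0.9, 14.1% ± 0.13 and 19.2% ± 0.77. Pik3ca took 4.11% to 5.51%, and Pik3cb was at or near 0 in every line. Per length, Pik3cd was thus the most abundant catalytic subunit transcript in all 3 lines.

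Pik3ap1, whose product links the receptor complex to PI3K, had 26.83 and 28.48 TPM in Abl.2, 64.26 and 61.93 in Abl.3, and 114.31 and 100.23 in Abl.4. The 3 lines did not overlap and stood in the same order as for Blk. Pik3ap1 was lower in Abl.2 than in Abl.3 by -1.16 ± 0.09 (limma, adjusted p = 0.000253), lower in Abl.2 than in Abl.4 by -1.92 ± 0.09 (adjusted p = 3.44e-05) and lower in Abl.3 than in Abl.4 by -0.75 ± 0.09 (adjusted p = 0.00163). Abl.2 thus had the highest transcript level of the enzyme and the lowest of its adaptor, and the ratio of Pik3cd to Pik3ap1 was 14.0 ± 1.1, 3.75 ± 0.054 and 2.14 ± 0.13 in the 3 lines (SD, n = 2).

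Of the inhibitory phosphatases, Inpp5d had 309.06 and 292.37 TPM in Abl.2, 208.69 and 216.31 in Abl.3, and 308.19 and 317.77 in Abl.4. Abl.3 stood below the other lines, which overlapped. Inpp5d was higher in Abl.2 than in Abl.3 by 0.50 ± 0.07 (limma, adjusted p = 0.00233) and lower in Abl.3 than in Abl.4 by -0.56 ± 0.07 (adjusted p = 0.0017), and Abl.2 against Abl.4 gave -0.06 (adjusted p = 0.561, 95% interval -0.23 to 0.11). Ptpn6 had 345.08 and 306.71 TPM in Abl.2, 309.12 and 279.05 in Abl.3, and 464.11 and 410.38 in Abl.4. Abl.4 stood highest and the others overlapped. Ptpn6 was lower in Abl.2 than in Abl.4 by -0.42 ± 0.10 (adjusted p = 0.021) and lower in Abl.3 than in Abl.4 by -0.57 ± 0.10 (adjusted p = 0.00668). The first call was lost without replicate 2 of Abl.2 or replicate 1 of Abl.4 (adjusted p = 0.125 and 0.0878), and the second without replicate 2 of Abl.3 (adjusted p = 0.0502). Abl.2 against Abl.3 gave 0.15 ± 0.10 (adjusted p = 0.291). Ptpn6 overlaps an annotated antisense gene, Gm20531, and whether strand was used in counting is not given in the sources used here.

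The transcript of the PI3K catalytic subunit was more abundant than that of the phosphatase that removes its product in Abl.2 and Abl.3, and less abundant in Abl.4. The ratios of Pik3cd to Inpp5d were 1.28 ± 0.0018, 1.11 ± 0.074 and 0.731 ± 0.038 in that order (SD, n = 2) and were not tested.

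**Figure D3:**
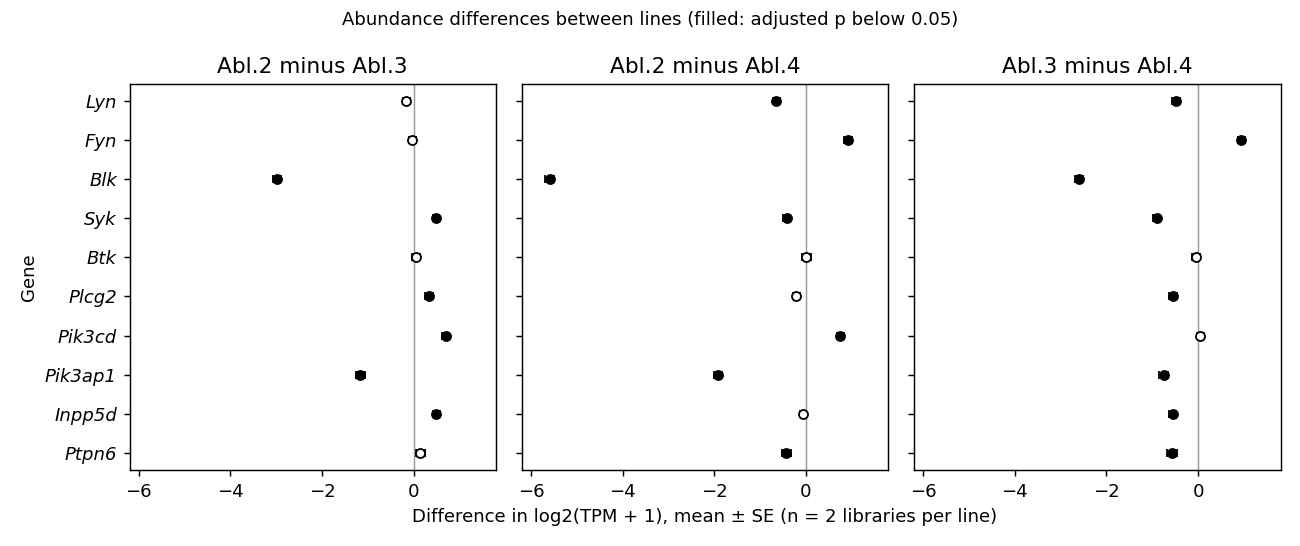
Difference in abundance between lines for each member, on the log2(TPM + 1) scale, with standard errors from limma and 1 panel per pair of lines. Filled points passed an adjusted p of 0.05. Blk reaches -5.59 and Pik3ap1 -1.92 in Abl.2 against Abl.4, Fyn and Pik3cd lie above 0 there, and Btk lies near 0 in all 3 panels.

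Ordered by mean TPM within a line, Pik3cd led in Abl.2 at 386.2 TPM, followed by Ptpn6, Inpp5d, Plcg2, Fyn, Syk, Btk, Lyn, Pik3ap1 and Blk. Ptpn6 and Inpp5d overlapped there, and every other neighbouring pair had separate libraries. In Abl.3 Ptpn6 led at 294.1 TPM, ahead of Pik3cd, and the order below was Inpp5d, Plcg2, Fyn, Btk, Syk, Lyn, Pik3ap1 and Blk, with Plcg2 overlapping Fyn and Btk overlapping Syk. In Abl.4 Ptpn6 led at 437.2 TPM before Inpp5d, Plcg2, Pik3cd, Syk, Blk, Pik3ap1, Btk, Lyn and Fyn. Syk and Blk overlapped in that line, and each of Pik3ap1, Btk and Lyn overlapped the next. Blk thus stood last in Abl.2 and Abl.3 and level with Syk in Abl.4, while Fyn stood in the middle of the order in Abl.2 and Abl.3 and last in Abl.4.

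Maternal and paternal transcripts of 8 members were then compared. The maternal share is the maternal count over the counts of both alleles, and it was tested with edgeR's quasi-likelihood model, adjusted as above. In Abl.2, 6 of 8 members departed from equal shares, against 49.1% of genes tested. In Abl.3 6 of 8 did, against 45.1%, and in Abl.4 7 of 8, against 39.9%. Between lines, 6 of 8 members differed in allele ratio between Abl.2 and Abl.3 (28.4% of all genes), 5 did so in Abl.2 against Abl.4 (22.3%) and 2 in Abl.3 against Abl.4 (16.5%). The background differed by chromosome: in Abl.2 against Abl.3, 98.0% of tested genes on chromosome 4 and 82.8% on chromosome 10 were called, against 18.1% on the other autosomes, and in Abl.2 against Abl.4 98.0%, 81.9% and 13.8%. Lyn and Pik3cd lie on chromosome 4 and Fyn on chromosome 10, and the other 5 lie elsewhere.

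Lyn and Pik3cd were maternal in Abl.2 and slightly paternal in the other lines. Lyn had 3061 maternal and 6 paternal counts in replicate 1 of Abl.2 and 4011 and 4 in replicate 2, so that 0.196% (95% Wilson interval 0.0897 to 0.426) and 0.0996% (0.0387 to 0.256) were paternal. Its maternal share was 0.449 and 0.444 in Abl.3 and 0.439 and 0.447 in Abl.4 (edgeR, adjusted p = 0.00387 and 0.00255, but 0.102 and 0.0843 with DESeq2). Pik3cd had maternal shares of 0.998 and 0.998 in Abl.2 on 75224 and 85553 counts, of 0.417 and 0.427 in Abl.3, and of 0.45 and 0.437 in Abl.4. The median maternal share of 554 genes of chromosome 4 came to 0.998, 0.507 and 0.499 in the 3 lines, and 98.4% of them were at or above 0.9 in Abl.2, so the near absence of paternal transcript was shared by the chromosome's genes. The log2 allele ratio of Lyn differed by 9.73 between Abl.2 and Abl.3 (edgeR, adjusted p = 7.2e-12) and that of Pik3cd by 9.16 (adjusted p = 3.18e-15). Pik3cd also differed between Abl.3 and Abl.4, by -0.13 ± 0.04 (adjusted p = 0.0445), a call lost with DESeq2, with a replicate block and without any 1 library other than replicate 2 of Abl.4 (adjusted p from 0.059 to 0.267 over these settings).

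Fyn had maternal shares of 0.367 and 0.342 in Abl.2, 0.557 and 0.506 in Abl.3, and 0.554 and 0.562 in Abl.4. Both libraries of Abl.2 were paternal and lay apart from the rest. The maternal lean of Abl.4 passed (edgeR, adjusted p = 0.00684) but not without its replicate 2 (adjusted p = 0.0566), and Abl.3, at 0.18, did not pass (adjusted p = 0.0717). The value of Abl.3 rested on single libraries: it was 0.036 without its replicate 1 (adjusted p = 0.787) and 0.33 without its replicate 2 (adjusted p = 0.0205). The log2 allele ratio was lower in Abl.2 by -1.05 ± 0.11 than in Abl.3 (edgeR, adjusted p = 1.55e-05) and by -1.20 ± 0.11 than in Abl.4 (adjusted p = 8.39e-06). The median share of 431 chromosome 10 genes came to 0.337, 0.503 and 0.504 in the 3 lines, and Fyn stood above 62.6% of them in Abl.2. Its share was therefore near the middle of its chromosome in that line.

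The favoured allele of Blk was not the same in all 3 lines, on a chromosome with balanced medians. Replicates 1 and 2 had maternal shares of 0.742 (95% Wilson interval 0.680 to 0.796, 217 counts) and 0.799 (0.749 to 0.842, 284 counts) in Abl.2, of 0.313 and 0.304 in Abl.3, and of 0.575 and 0.559 in Abl.4. The lines did not overlap, and Blk was maternal in Abl.2 and Abl.4 and paternal in Abl.3. Each departure from equality passed (edgeR, adjusted p = 1.02e-06, 4.11e-07 and 0.000533 in turn). So did the differences between lines: 2.93 ± 0.15 for Abl.2 against Abl.3 (adjusted p = 4.99e-08), 1.38 ± 0.15 for Abl.2 against Abl.4 (adjusted p = 3.68e-05) and -1.55 ± 0.10 for Abl.3 against Abl.4 (adjusted p = 6.75e-07). The chromosome 14 medians were 0.503, 0.498 and 0.503, and the share of Blk lay above 95.7%, 6.03% and 85.5% of the chromosome's genes in Abl.2, Abl.3 and Abl.4.

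Pik3ap1 had maternal shares of 0.484 and 0.492 in Abl.2, 0.562 and 0.575 in Abl.3, and 0.558 and 0.558 in Abl.4. Abl.2 lay below the others, at -0.46 ± 0.09 on the log2 allele ratio against Abl.3 (edgeR, adjusted p = 0.00167) and -0.40 ± 0.08 against Abl.4 (adjusted p = 0.00472). Inpp5d was maternal in every line, at mean shares of 0.577 ± 0.0044, 0.540 ± 0.019 and 0.558 ± 6.2e-05 (SD, n = 2). The median share of the 492 genes of chromosome 1, where it lies, was 0.501, 0.449 and 0.504, likewise lowest in Abl.3. Inpp5d stood above 82.3%, 86.8% and 78.3% of these genes in the 3 lines. Its difference of 0.22 ± 0.06 between Abl.2 and Abl.3 passed (adjusted p = 0.0142) but not without replicate 2 of Abl.2 or replicate 1 of Abl.3 (adjusted p = 0.0916 and 0.136) and not with each library's own allele totals as the baseline (adjusted p = 0.185). Ptpn6 was maternal at 0.540 ± 0.0093, 0.533 ± 0.0043 and 0.541 ± 0.0067 (adjusted p = 0.0083, 0.027 and 0.00996), and these 3 calls were lost in at least 1 of the leave-one-library-out fits. Syk was close to equal in all libraries, from 0.481 to 0.510, and no test of it passed in the fit described. With each library's own allele totals as the baseline, its share in Abl.2 (edgeR, adjusted p = 0.018) and the difference of Abl.2 from Abl.4 (adjusted p = 0.0383) passed. That baseline also moved the median log2 allele ratio of all genes in Abl.2 from 0.004 to -0.115. Syk there went from -0.0237 to -0.1427. For Abl.2 against Abl.4 the median difference of all genes went from 0.0012 to -0.1325, and the difference of Syk from -0.0621 to -0.1963.

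**Figure D4:**
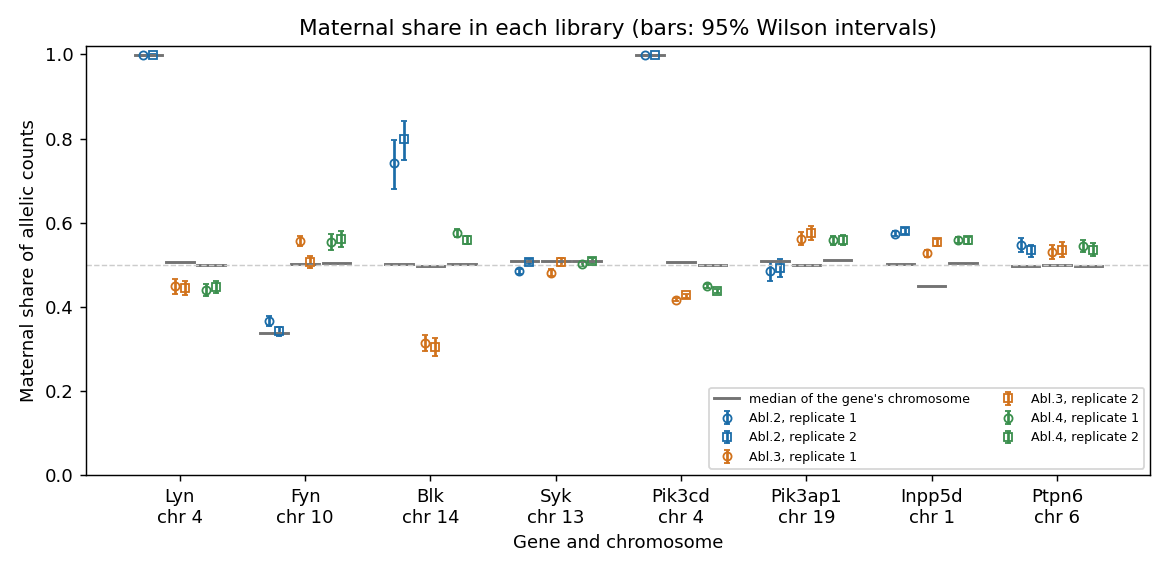
Maternal share (0 to 1) of the 8 members with allelic counts. Symbols are libraries, coloured by line, vertical bars are 95% Wilson intervals (counting error only), and grey horizontal lines are the medians of each gene's chromosome in that line. Lyn and Pik3cd sit near 1 in Abl.2 with their chromosome, Fyn near its chromosome's 0.337, and Blk apart from the chromosome 14 median in Abl.2 and Abl.3.

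Splitting the TPM of each gene by its maternal share gives an abundance per allele. The maternal Lyn allele stood at 61.8 ± 2.4, 30.9 ± 0.53 and 43.0 ± 1.3 TPM in Abl.2, Abl.3 and Abl.4 (SD, n = 2), and the paternal allele at 0.0906 ± 0.039, 38.4 ± 1.2 and 54.1 ± 2.8. The single expressed allele of Abl.2 was thus 2.0 times the maternal level of Abl.3, and the total was near that of Abl.3. For Pik3cd the maternal allele stood at 385.2 ± 15.0, 99.8 ± 2.4 and 101.5 ± 5.0 TPM, 3.86 times higher in Abl.2 than in Abl.3, and the paternal at 0.926 ± 0.055, 136.8 ± 7.2 and 127.3 ± 1.9. Lyn and Pik3cd therefore shared the allelic pattern but not the total, since Lyn was lower in Abl.2 than in Abl.4 and Pik3cd higher in Abl.2 than in both other lines.

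The Blk alleles changed unequally. The maternal allele had 2.24 ± 0.14, 9.28 ± 0.61 and 106.6 ± 6.8 TPM in Abl.2, Abl.3 and Abl.4 (SD, n = 2), and the paternal allele 0.667 ± 0.11, 20.8 ± 0.76 and 81.3 ± 1.3. From Abl.2 to Abl.3 the maternal allele was 4.14 times and the paternal 31.1 times higher, and from Abl.3 to Abl.4 11.5 times and 3.91 times. Both alleles were thus higher at each step, the paternal more at the first and the maternal more at the second, which is the allele-ratio difference tested above. For Fyn the maternal allele had 62.8 ± 5.1, 95.8 ± 11 and 52.0 ± 2.4 TPM and the paternal 114.3 ± 0.48, 84.2 ± 2.1 and 41.2 ± 2.9. Both alleles of Fyn were lowest in Abl.4. Both alleles of Pik3ap1 were highest there, at 59.8 ± 5.5 and 47.4 ± 4.4 TPM against 13.5 ± 0.73 and 14.1 ± 0.44 in Abl.2.

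**Figure D5:**
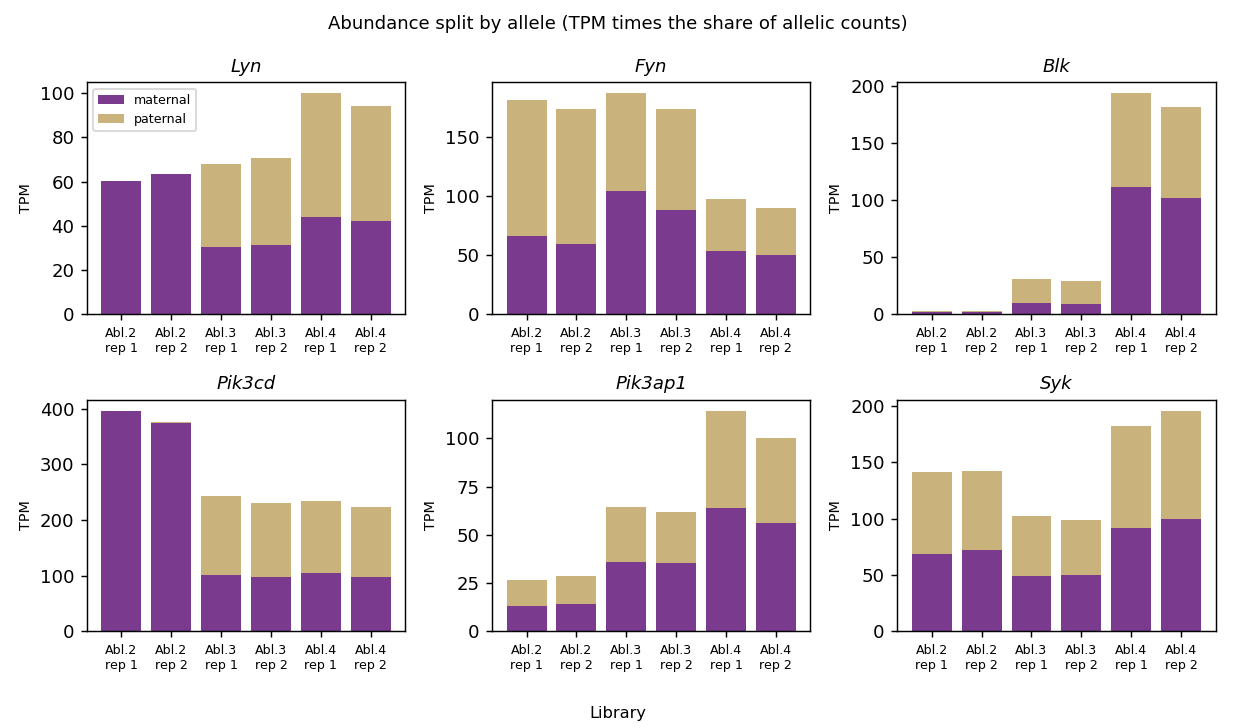
Abundance split by allele for Lyn, Fyn, Blk, Pik3cd, Pik3ap1 and Syk, with 1 panel per gene and 1 bar per library. Bars show TPM from 0, divided into the maternal (purple) and paternal (tan) part by the share of allelic counts. The paternal part of Lyn (mean 0.0906 TPM) and Pik3cd (mean 0.926) is too small to see in Abl.2, and both Blk alleles are highest in Abl.4.

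The authors' deposited table gives a maternal fraction per line over averaged replicates, with limits whose confidence level is not given in the sources used here. In the authors' deposited table Blk had 0.77 (limits 0.6 to 0.91), 0.31 (0.25 to 0.37) and 0.57 (0.53 to 0.6) in the 3 lines. The limits of Blk in the authors' deposited table thus met at 0.6 for Abl.2 and Abl.4. The authors' deposited table has Fyn at 0.35 (0.32 to 0.39), 0.53 (0.49 to 0.58) and 0.56 (0.49 to 0.63), so its Abl.2 limits lay below those of both other lines. For Ptpn6 the limits in the authors' deposited table included 0.5 in each line (0.49 to 0.58, 0.48 to 0.59 and 0.49 to 0.59). Those of Lyn in the authors' deposited table reached 0.5 in Abl.3 and Abl.4 (0.39 to 0.5 in both). Inpp5d limits in the authors' deposited table lay above 0.5 in each line (0.56 to 0.6, 0.51 to 0.57 and 0.53 to 0.59).

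A list of 108 other genes of the pathway was read from the same fits, and 97 were tested for abundance. In Abl.2 against Abl.3, 50 passed (51.5%, against 39.8% of all genes), 35 higher and 15 lower in Abl.2. In Abl.2 against Abl.4, 43 passed (44.3%, against 33.5%), 9 higher and 34 lower. In Abl.3 against Abl.4, 50 passed (51.5%, against 38.1%), 7 higher and 43 lower. The list's medians were 0.14, -0.20 and -0.29, beside 0.10, -0.03 and -0.15 for all genes. Of all genes, 25.9%, 15.0% and 11.3% were called higher in the first line of the 3 pairs and 14.0%, 18.4% and 26.8% lower. These shares are the background for every directional count of the list and its groups. The lean of all genes changed with the scaling as given above, and the counts of the list and its groups are given in TPM only.

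Of the receptor chains, such as Cd79a and Igll1, 4, 4 and 5 of 7 passed in the 3 pairs (57.1%, 57.1% and 71.4%, above the 39.8%, 33.5% and 38.1% of all genes), none by a log2 difference of 1 or more. Of 9 coreceptors and inhibitory receptors tested, 5, 6 and 5 passed (55.6%, 66.7% and 55.6%). None was higher in Abl.2 or in Abl.3 than in Abl.4, and 6 and 5 were lower. Cd22, an inhibitory receptor that recruits Ptpn6, had 23.3 and 21.33 TPM in Abl.2, 20.61 and 18.28 in Abl.3, and 100.03 and 84.68 in Abl.4 (-2.19 ± 0.12 for Abl.3 against Abl.4, limma, adjusted p = 5.84e-05). Siglecg, another such receptor, had 34.5 and 32.75, 110.37 and 95.93, and 109.85 and 114.75 TPM, so that Abl.2 alone was low (-1.59 ± 0.09 against Abl.3, adjusted p = 6.58e-05). Of 6 genes tested among the other tyrosine kinases, Csk and its anchor, 5, 5 and 4 passed (83.3%, 83.3% and 66.7%). Pag1, the membrane anchor of the Src-inhibiting kinase Csk, had 6.73 ± 1.2, 12.2 ± 0.042 and 47.5 ± 1.5 TPM (SD, n = 2), the order of Blk. Zap70, the relative of Syk used by T cells, was at 3.03 ± 0.14, 10.8 ± 0.57 and 6.95 ± 1.7 TPM, and Syk exceeded it in every line. Cd5, an inhibitory coreceptor, had 1.21 ± 0.29, 5.55 ± 0.68 and 2.80 ± 1.6 TPM.

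Of 15 adaptors and ubiquitin ligases, 10, 8 and 9 passed (66.7%, 53.3% and 60%, above the 39.8%, 33.5% and 38.1% of all genes). Gab1, a docking protein for PI3K, had 18.0 ± 0.0071, 5.29 ± 0.38 and 27.4 ± 1.0 TPM (SD, n = 2), and Cblb, a ubiquitin ligase, 7.34 ± 0.48, 2.51 ± 0.37 and 7.0 ± 1.5. Both were lowest in Abl.3. Sh3bp2, an adaptor that binds Syk, was highest in Abl.2, at 21.1 ± 2.5 against 8.58 ± 1.2 and 8.26 ± 0.078 TPM.

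Among other class I PI3K subunits, 1 of 7 passed in each comparison of Abl.2 (14.3%, below all genes), and 5 of 7 in Abl.3 against Abl.4 (71.4%, above the 38.1% of all genes). Of the 14 genes that act on or after PIP3, 10, 8 and 8 passed (71.4%, 57.1% and 57.1%, likewise above all genes). Inppl1, which encodes SHIP2, the more widely expressed relative of Inpp5d, had 66.9 ± 3.7, 20.9 ± 1.8 and 151.2 ± 3.8 TPM (SD, n = 2). Like Inpp5d it was lowest in Abl.3 (1.64 ± 0.09 for Abl.2 against Abl.3, limma, adjusted p = 5.53e-05). Mtor, the growth kinase downstream of Akt, had 28.32 and 29.67 TPM in Abl.2, 21.58 and 20.33 in Abl.3, and 344.34 and 329.85 in Abl.4 (-3.50 ± 0.08 for Abl.2 against Abl.4, adjusted p = 2.65e-06). Inpp4a, an inositol lipid phosphatase, was at 4.23, 0.745 and 4.53 TPM. Annotated genes overlap most of the pathway genes named here, among them Prkcb (8 genes), Mtor, Itpr2 and Ptpn22 (3 each) and Pag1, Inppl1 and Gab1 (2 each), and reads of such genes were not separated.

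In the calcium branch, which Plcg2 feeds, 8, 4 and 8 of 13 passed (61.5%, 30.8% and 61.5%). Of the 13 tested, 7 passed as higher in Abl.2 than in Abl.3, beside 25.9% of all genes tested. In Abl.3 against Abl.4, 8 of the 13 passed as lower in Abl.3, beside 26.8% of all genes tested. Plcg2 itself showed the low level of Abl.3. Itpr2, a calcium channel opened by the product of Plcg2, had 71.6 ± 16.0, 54.8 ± 0.071 and 162.8 ± 1.1 TPM (SD, n = 2). The transcription factor gene Nfatc3 had 59.0 ± 2.9, 26.8 ± 2.1 and 43.9 ± 6.5 TPM, and Orai2, a calcium channel of the cell surface, 31.5 ± 1.9, 14.6 ± 2.4 and 29.9 ± 0.078, both lowest in Abl.3.

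In the diacylglycerol, NF-kB and Ras branch, 5, 6 and 4 of 20 passed (25%, 30% and 20%, below the 39.8%, 33.5% and 38.1% of all genes). Of its genes, Prkcb and Rasgrp1 were lower in Abl.2 than in both other lines. Prkcb, the protein kinase C of the receptor pathway, had 18.36 and 20.21 TPM in Abl.2, 112.81 and 108.48 in Abl.3, and 95.05 and 93.62 in Abl.4 (-2.46 ± 0.08 for Abl.2 against Abl.3, limma, adjusted p = 7.88e-06). Rasgrp1, a Ras activator that binds diacylglycerol, had 2.73 ± 0.13, 11.2 ± 0.76 and 8.08 ± 2.0 TPM. In a separate group, of 6 other tyrosine phosphatases 2, 1 and 2 passed (33.3%, 16.7% and 33.3%, likewise below all genes). Among them Ptpn22, a phosphatase that acts on Src-family kinases, was highest in Abl.2, at 23.5 ± 2.0, 13.8 ± 0.64 and 2.22 ± 0.24 TPM (2.93 ± 0.13 for Abl.2 against Abl.4, limma, adjusted p = 2e-05).

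By allele, 81 of the other pathway genes were tested, and 33 (40.7%), 26 (32.1%) and 15 (18.5%) differed between lines in the 3 pairs, beside 28.4%, 22.3% and 16.5% of all genes. Outside chromosomes 4, 10 and X, 4 of the 75 tested were nearly monoallelic in Abl.2 and balanced in another line (5.33%, beside 2.39% of 7495 genes), and 0 were so in Abl.3 or Abl.4 (beside 1.4% and 1.09% of those genes). Prkcb was maternal there, at a share of 0.998 ± 0.0032, and at 0.519 ± 0.015 in Abl.3 and 0.542 ± 0.0032 in Abl.4 (SD, n = 2; edgeR, adjusted p = 1.46e-09 for Abl.2 against Abl.3). Pag1 was paternal there, at 0.00403 ± 0.0023 beside 0.452 ± 0.048 and 0.445 ± 0.018 (adjusted p = 4.72e-09). Rasgrp1 was at 0.985 ± 0.021, 0.507 ± 0.015 and 0.610 ± 0.095, and Inpp4b, a phosphatase that acts on a product of Inpp5d, at 0.0904 ± 0.067, 0.482 ± 0.02 and 0.415 ± 0.015. Inpp4b, with as few as 117 counts in a library, was counted by its mean, and its SD in Abl.2 spans the cut of 0.1. All 4 also had their lowest mean TPM in Abl.2, among them Inpp4b at 1.57 TPM against 4.44 and 3.78. Whether genes with this allelic pattern were lowest in Abl.2 more often than other genes was not tested. Among the members, Lyn, Blk and Pik3ap1 also had their lowest mean TPM there. Lyn, on chromosome 4, was nearly monoallelic in that line at a share of 0.999, though its abundance difference from Abl.3 did not pass, and Blk and Pik3ap1 were not, at 0.771 and 0.488. Pik3cd, just as monoallelic there at 0.998, had its highest mean TPM in Abl.2.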

How the data were processed

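RNA-seq was deposited for 6 libraries, grouped by the line in their titles. Allelic counts are whole-number counts of maternal and paternal alleles at SNP positions, per the file headers. Per the file headers, DESeq2 gave the deposited TPM. The authors' maternal fraction per line averaged replicates, with limits by a cited method, per the file headers. The submitters' processing notes name STAR 2.5.4a, SAMtools, GATK and DESeq2, and GRCm38, GRCh37 and mm10, without roles. Which parental strain was the mother was not used. Per the labels' protocols, libraries were made with the SMARTseqv4 kit from 10 ng of RNA. Reads carry no molecular identifiers here, so Wilson intervals cover counting error only.

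Abundance was tested with limma 3.58.1 (eBayes with trend) on log2(TPM + 1), over all 6 libraries with line as the only factor. Only genes averaging 1 TPM or more entered. The allele fit used edgeR 4.0.16 (R 4.3.3) with an intercept per library, an allele effect per line and 1 library size for both alleles, for 8702 autosomal and X genes with at least 20 allelic counts in each library. The edgeR and limma p-values are Benjamini-Hochberg adjusted over all genes tested. Overlapping genes are from GENCODE M21. Both fits were tested on simulated data, whose outcome is not given here. The members, the pathway and marker lists and the rule for named genes were chosen with earlier results of these data known. Named pathway genes were, per group, up to 3 with the largest change of at least 1 that passed and for alleles up to 8 outside chromosomes 4 and 10 at a share of at most 0.1 or at least 0.9 in one line and from 0.3 to 0.7 in another. Some of these genes are not reported here. Libraries of a line differed beyond sampling noise and were counted as 2. Alternatives were another pseudocount, other filters, quantile normalisation, summed allelic counts, DESeq2 1.42.0, each library's own allele totals, a replicate block and leaving out each library.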

Additional observations from a re-analysis of the deposited data

Results flagged for a closer look

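These allele ratios differed between lines in the test of the difference itself (edgeR, adjusted over all genes; values are log2 maternal over paternal, first line minus second). In Abl.2 against Abl.3 the difference was 9.73 for Lyn, 9.16 for Pik3cd, 2.93 for Blk, 0.22 for Inpp5d, -0.46 for Pik3ap1 and -1.05 for Fyn. In Abl.2 against Abl.4 it was 9.75 for Lyn, 9.03 for Pik3cd, 1.38 for Blk, -0.40 for Pik3ap1 and -1.20 for Fyn. In Abl.3 against Abl.4 it was -1.55 for Blk and -0.13 for Pik3cd. Blk differed in all 3 pairs, with both libraries of each line apart from those of the others. The values for Lyn, Pik3cd and Fyn in Abl.2 were those of their chromosomes' genes, with medians of 0.998 and 0.337 for the maternal share of chromosomes 4 and 10. For chromosome 1, which holds Inpp5d, the median was 0.501 in Abl.2 and 0.449 in Abl.3.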

How the results depend on the processing

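Of 21 abundance calls on members, 18 kept direction and significance in every setting run for them (Plcg2 and Btk were not run on summed allelic counts), as did 13 of 19 calls of imbalance and 11 of 13 of allelic difference, and no called member changed direction. Without 1 library, where the lone sample is assumed to vary like the others, calls over all genes ranged from 2529 to 4565, 2040 to 3269 and 2336 to 3659 for abundance. The members differing by allele between Abl.3 and Abl.4 fell to 1 with DESeq2 and with the replicate block, and were 1 to 2 without 1 library, where Pik3cd had adjusted p from 0.0198 to 0.267 (DESeq2 0.0641, block 0.0626). The labels tie no batch to the replicate numbers, and with 2 numbers a line their pairing was not established: deviations of same-numbered libraries correlated at 0.104 to 0.187 over the 3 pairs of lines for abundance and at -0.034 to 0.016 for alleles. The block gave 5213, 4608 and 5184 abundance calls and made Plcg2 pass in Abl.2 against Abl.4 (adjusted p = 0.0261).

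Uncalled differences changed sign. With quantile normalisation Btk gave -0.0129, -0.0093 and 0.0036. On summed allelic counts Ptpn6 gave -0.0534 (Abl.2 against Abl.3) and Inpp5d 0.124 (Abl.2 against Abl.4). At each library's allele totals the allelic differences were -0.0904 for Syk and -0.0648 for Ptpn6 (Abl.2 against Abl.3), -0.0187 for Inpp5d (Abl.2 against Abl.4) and -0.0093 for Lyn (Abl.3 against Abl.4). The medians of all genes in that setting were -0.0766, -0.1325 and -0.0465 in the 3 pairs, beside 0.0291, 0.0012 and -0.0181 in the main fit. Without 1 library, Fyn in Abl.2 against Abl.3 ranged from -0.0752 to 0.0298, and Btk from -0.0187 to 0.132, -0.081 to 0.0983 and -0.138 to 0.0415 in the 3 pairs. Allelic values of Syk ranged from -0.0896 to 0.0417 (Abl.2) and -0.111 to 0.0342 (Abl.3), its differences of Abl.2 from -0.0579 to 0.0873 and -0.128 to 0.0033, Ptpn6 (Abl.2 against Abl.4) from -0.0395 to 0.0373 and Lyn (Abl.3 against Abl.4) from -0.0037 to 0.0419. Depth limited Blk in Abl.2 most, at 217 and 284 allelic counts. The causes were not tested.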
